A study of Mus musculus with 12 samples.

Results

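The genes described here are 10 genes of the nuclear lamina and the nuclear envelope, found by their symbols among the 22548 genes of an RNA-seq table of mouse hematopoietic stem cells (HSCs). They are the lamin genes Lmna, Lmnb1 and Lmnb2, the lamin B receptor gene Lbr, the genes of the LEM-domain proteins emerin (Emd) and LAP2 (Tmpo), the gene of their chromatin partner BAF (Banf1), and the genes Sun1, Sun2 and Syne1 of the complex that links the nucleus to the cytoskeleton. All 10 were present in the table.

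The study compared long-term HSCs of C57BL/6 mice in 12 samples, namely 4 of young HSCs (mice of 2 to 4 months, numbered 2 to 5), 5 of aged HSCs (20 to 26 months, numbered 0 and 2 to 5) and 3 of CASIN-treated HSCs from mice of the same age range as the aged ones (numbered 1 to 3). CASIN is a small molecule that inhibits the RhoGTPase Cdc42, and it was used at 5 µM. Per the labels, all cells, untreated ones included, were kept for 16 h in buffered salt solution with 10% serum at 3% O2, and at least 200 sorted cells were used for each library, prepared by a kit for single-cell RNA-seq. The methods of the study give a larger number of pooled cells per library. The study asks how age and Cdc42 activity act on the architecture of the HSC nucleus. Lamin A/C is the envelope protein on which the study centres.

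The lamina is a meshwork of intermediate filament proteins under the inner nuclear membrane. B-type lamins stay attached to that membrane through a farnesyl group, whereas lamins A and C, both made from Lmna, differ with cell type and stiffen the nucleus. LBR, emerin and LAP2 hold chromatin at the membrane, the LEM-domain proteins doing so through BAF. SUN proteins cross the inner membrane and bind nesprins such as nesprin-1 (Syne1) in the outer membrane, which form the LINC complex and tie the lamina to actin and microtubules.

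The deposited values are log2 expression levels that the authors had brought to one distribution across samples. In every sample between 2535 and 16470 genes share the lowest value, and a gene above it was counted as detected. The depth of the libraries is unknown. Detected genes numbered 6078 to 9673 in young, 11463 to 17621 in aged and 6845, 20013 and 7288 in CASIN replicates 1, 2 and 3, so CASIN replicate 2 stood apart from the other CASIN-treated samples. This lowest value was not the same everywhere, being 0.43 to 0.67 in young, 0.02 to 0.23 in aged, and 0 to 0.63 in CASIN-treated samples. It rose with the number of genes that shared it, from 0 with 2535 genes in CASIN replicate 2 to 0.67 with 16470 in young replicate 2. The lowest value thus follows how many genes were undetected, and it enters the differences between groups for undetected genes. Values just above the lowest were shared by many genes as well, for example 1.30 by 1452 genes in aged replicate 4, and whether the values are per length is not given in the sources used here. Levels were therefore not compared between genes.

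The label of the cells was checked with marker genes. Of 10 HSC genes, 3 to 6 were detected in young, 6 to 10 in aged and 3 to 10 in CASIN-treated samples, with summed log2 values of 23.4 to 33.9, 21.1 to 34.7 and 26.6 to 31.6. Kit and Ly6a, which encode the c-Kit and Sca-1 antigens of the sort, were each at the lowest value in 4 of 4 young samples, in 2 of 5 aged and in 2 of 3 CASIN-treated samples. Procr, another HSC gene, was detected in 2 of 4 young samples, at up to 7.38, in 3 of 5 aged and in 1 of 3 CASIN-treated samples. Of 4 genes of later progenitors, which the sort gates out, 1 to 2 were detected in young, 2 to 3 in aged and 1 to 3 in CASIN-treated samples. Flt3 was among them in 1 of 4 young, 5 of 5 aged and 1 of 3 CASIN-treated samples, and Cd34 in 1 of 4, 4 of 5 and 1 of 3, while Cd48 was at the lowest value in all samples. Among genes of other cell types, 2 to 3 of 5 T-cell genes were detected in young and 3 to 5 in aged samples, 0 to 3 and 2 to 6 of 6 B-cell genes, 1 to 2 and 3 to 4 of 6 myeloid genes, 0 to 2 and 1 to 4 of 5 erythroid genes, and 1 to 5 and 4 to 6 of 6 stromal and endothelial genes. In CASIN-treated samples these numbers were 2 to 5, 2 to 6, 1 to 5, 0 to 2 and 1 to 6. For comparison, 27.0% to 42.9% of all genes were detected in young, 50.8% to 78.1% in aged and 30.4% to 88.8% in CASIN-treated samples. By these counts HSC genes did not stand out from T-cell genes, so detection alone does not settle the label of the cells. The part of these differences in detection in the results below was not tested.

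The lamina and envelope genes were detected unevenly from sample to sample, and none differed between groups after adjustment over all genes. Syne1 and Sun2 were detected in all 12 samples, Sun1 in 10, Tmpo in 9, Emd in 7, Lmna and Lbr in 6, Lmnb2 in 5, and Lmnb1 and Banf1 in 4. The longest annotated transcript of these genes ran from 1261 bases (Banf1) to 27908 (Syne1). The part of transcript length in detection was not tested. For comparison, 9.5% of the 22548 genes were above the lowest value in each of the 12 samples and 51.4% in at least 6. Young samples detected 6, 8, 4 and 5 of the 10 genes (replicates 2 to 5), aged samples 7, 9, 6, 7 and 6 (replicates 0 and 2 to 5) and CASIN-treated samples 4, 10 and 3. Put together, 23 of 40 pairs of a gene and a sample were above the lowest value in young HSCs (57.5%, against 34.4% of all genes), 35 of 50 in aged (70.0% against 62.6%) and 17 of 30 in CASIN-treated HSCs (56.7% against 50.5%). The sample with the most genes in all, CASIN replicate 2, was also the only one that detected all 10. In bulk samples, fewer cells of a type and less RNA per cell cannot be told apart.

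**Figure D1:**
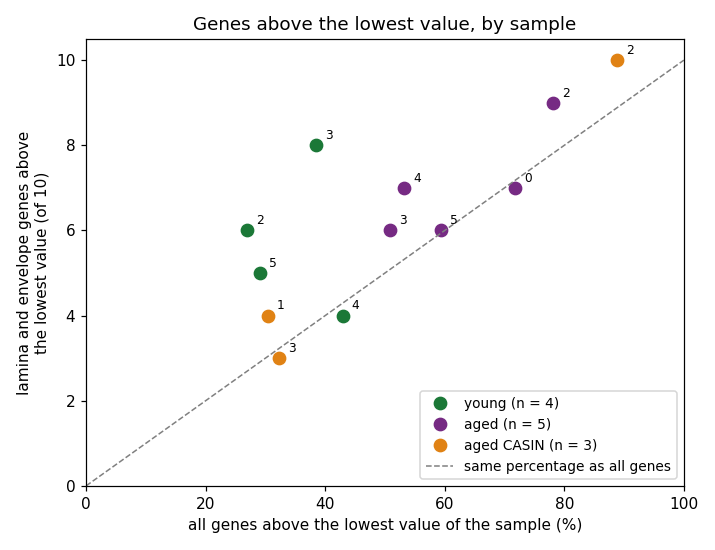
Number of the 10 lamina and envelope genes above the lowest value of the sample (y axis) against the percentage of all 22548 genes above it (x axis), 1 point per sample with its replicate number, with a dashed line where both percentages are the same. Young samples 2, 3 and 5 lie well above the line with 6, 8 and 5 genes, and CASIN replicate 2 lies at the upper right with 10.

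Differences were tested by limma, with all 3 groups fitted together, with Benjamini-Hochberg adjustment over all 22548 genes. In the young against aged comparison, 0 of the 10 lamina and envelope genes had an adjusted p under 0.05, against 0.0177% of all genes, and 0 had an unadjusted p under 0.05, against 5.33%. Between aged CASIN-treated and aged HSCs both numbers were again 0, against 0.0222% and 4.4% of all genes. Between young and aged CASIN-treated HSCs, 0 genes passed after adjustment, against 0% of all genes, and 1 gene, Sun1, had an unadjusted p under 0.05, against 4.29%. With every sample set to one common lowest value, no gene of the 10 had groups that did not overlap in any of the 3 comparisons, against 1.96%, 2.11% and 2.07% of all genes in the order above. The young and the CASIN-treated samples are compared with the same aged samples, so that the first 2 comparisons are not independent.

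The median difference of the 10 genes was 1.24 log2 units for young minus aged HSCs, 0.08 for CASIN-treated minus aged HSCs and 0.72 for young minus CASIN-treated HSCs. Over all genes the medians were -0.02, -0.04 and 0.09. Higher means in young than in aged HSCs were found for 7 of the 10 genes, in CASIN-treated than in aged HSCs for 6, and in young than in CASIN-treated HSCs for 6. Of all genes, 49.5%, 48.4% and 54.7% had a difference above 0 in these comparisons. After centring of each sample on the 2143 always-detected genes, the median of all genes moved to 0.44, 0.31 and 0.19 and these counts became 7, 8 and 7. They were also 7, 8 and 7 with a pseudocount of 0.1 or with the number of detected genes as a covariate. The pseudocount fit assumed that the deposited values hold a pseudocount of 1, which the sources used here do not state. It moved the median of all genes to 0.21, 0.11 and 0.20, so its counts carry a shift of all genes as well. With a common lowest value the counts of the 10 genes were 7, 5 and 6, and with array weights 7, 5 and 7. Without young replicate 3 they were 5, 6 and 4. A filter on a mean of at least 3 left 3 of the 10 genes, of which 1, 2 and 2 had a difference above 0.

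**Figure D2:**
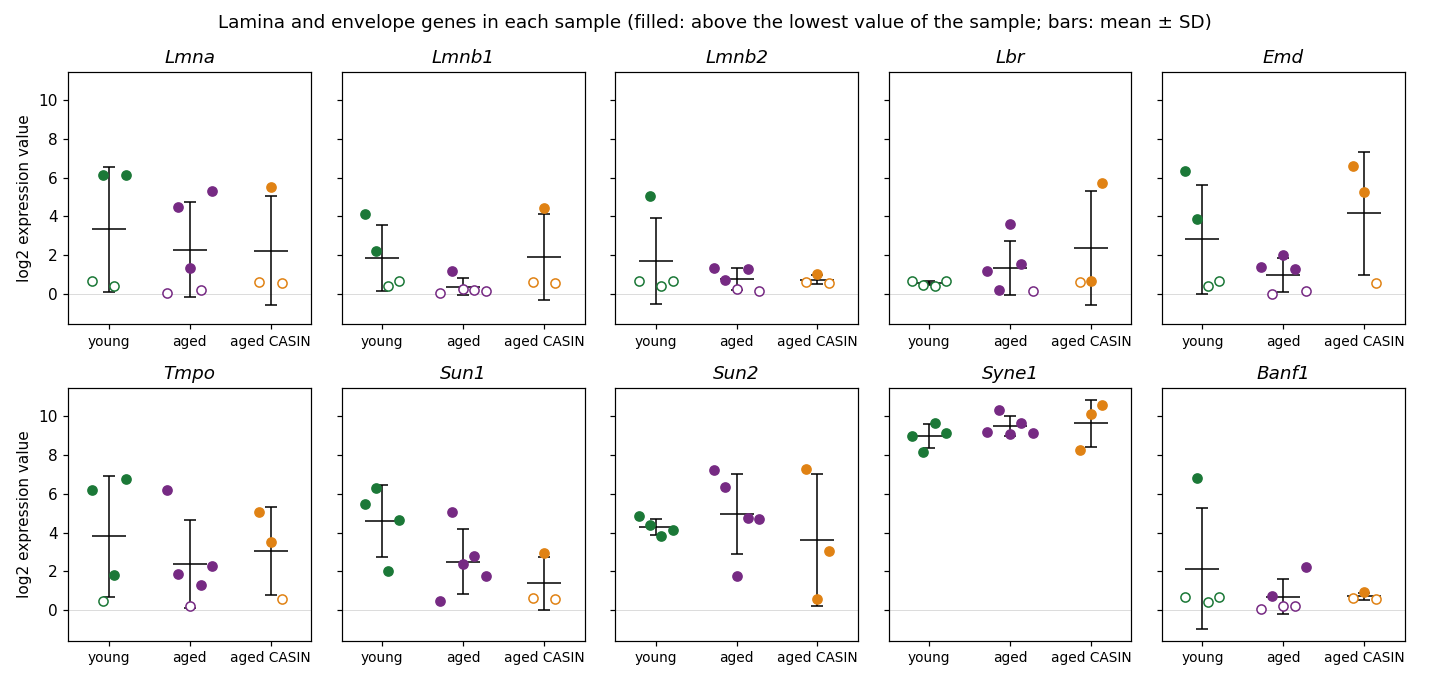
Log2 expression value of each of the 10 genes (y axis) in each sample of young (green), aged (purple) and aged CASIN-treated HSCs (orange), with filled points above the lowest value of the sample, open points at it, and the mean ± SD of the group in black. Points of Syne1 keep between 8.17 and 10.56, whereas for Lmna every group holds both open points and points above 4.

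Lmna, the gene of lamins A and C (chromosome 3, 88480147 to 88509956 of mm10, minus strand), was in each group either above 4 or at or near the lowest value. In young HSCs its values were 0.67, 6.13, 0.43 and 6.14 in replicates 2 to 5, of which replicates 3 and 5 were above the lowest value. In aged HSCs they were 0.07, 4.48, 1.36, 0.22 and 5.32 in replicates 0 and 2 to 5, with replicates 2, 3 and 5 above it. The value of 1.36 in aged replicate 3 is the one that most detected genes of that sample share, 1115 in all. After CASIN the values were 0.63, 5.51 and 0.58, of which only replicate 2 was above the lowest value. The 3 groups overlapped over almost their whole range.

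The mean of Lmna was 3.34 ± 3.23 in young HSCs (SD, n = 4), 2.29 ± 2.45 in aged HSCs (SD, n = 5) and 2.24 ± 2.83 after CASIN (SD, n = 3). Young exceeded aged HSCs by 1.05 log2 units, with a 95% confidence interval from -2.82 to 4.92 and an adjusted p of 0.899 from limma. CASIN-treated minus aged HSCs gave -0.05 (95% confidence interval -4.26 to 4.16, adjusted p = 1.0 from limma), and young minus CASIN-treated HSCs 1.11 (-3.30 to 5.51, adjusted p = 1.0 from limma). Differences of several log2 units in either direction thus lie within these intervals. The CASIN difference turned on single samples, as it was -1.69 without CASIN replicate 2 and 0.78 without CASIN replicate 3. The difference between young and aged HSCs was 0.12 without young replicate 5 and 2.02 without young replicate 4. It was 3.11 with the number of detected genes as a covariate and 0.50 with the replicate number as a block. Detected genes numbered 6078 to 9673 in young and 11463 to 17621 in aged samples, without overlap. The covariate fit therefore cannot separate age from detection.

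Lmnb1, a B-type lamin gene, was detected in 2 of 4 young, 1 of 5 aged and 1 of 3 CASIN-treated samples. Its values in young replicates 2 to 5 were 4.11, 2.22, 0.43 and 0.65. In aged HSCs they were 0.07, 1.16, 0.23, 0.22 and 0.16, and after CASIN 0.63, 4.44 and 0.58. Both young values above the lowest, 4.11 and 2.22, are the most shared values above the lowest in their samples, held by 852 and 959 genes. The means were 1.85 ± 1.70 in young HSCs (SD, n = 4), 0.37 ± 0.45 in aged HSCs (SD, n = 5) and 1.88 ± 2.22 after CASIN (SD, n = 3). Young minus aged HSCs gave 1.49 (95% confidence interval -0.60 to 3.57, adjusted p = 0.764 from limma) and CASIN-treated minus aged HSCs 1.51 (-0.75 to 3.78, adjusted p = 0.948 from limma). Without young replicate 2 the first difference was 0.73, and without CASIN replicate 2 the second was 0.23.

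Lmnb2, the other B-type lamin gene, was high in a single library. Young replicate 3 stood at 5.04, and the other young samples were at their lowest values of 0.67, 0.43 and 0.65. The aged values were 1.33, 0.73, 0.23, 1.30 and 0.16, of which 3 were above the lowest, and the CASIN values were 0.63, 1.02 and 0.58, of which 1 was. Young minus aged HSCs gave 0.95 (95% confidence interval -0.98 to 2.87, adjusted p = 0.809 from limma), which became -0.17 without young replicate 3. CASIN-treated minus aged HSCs gave -0.01 (-2.11 to 2.08, adjusted p = 1.0 from limma).

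Lbr, which encodes a membrane receptor for B-type lamins and heterochromatin protein 1 that also has sterol reductase activity (chromosome 1, 181815335 to 181843046, minus strand), was the only one of the 10 genes at the lowest value in every young sample. Many genes were at it, 12875 to 16470 in each young sample, and the share of all genes at it in every young sample was not counted. Whether Lbr is unusual in this is thus not known. Lbr was detected in 4 of 5 aged samples, with values from 0.16 to 3.59 over that group, and in 2 of 3 CASIN-treated samples, with values of 0.63, 0.69 and 5.74. The aged value nearest to the lowest, 0.22 in replicate 2, is shared by 646 genes. Young minus aged HSCs gave -0.78 (95% confidence interval -3.12 to 1.57, adjusted p = 0.873 from limma) and young minus CASIN-treated HSCs -1.79 (-4.46 to 0.88, adjusted p = 1.0 from limma). CASIN-treated minus aged HSCs gave 1.02 (-1.53 to 3.57, adjusted p = 0.948 from limma), or -0.68 without CASIN replicate 3, the sample at 5.74. Without that sample young minus CASIN-treated HSCs was -0.10, and without aged replicate 3, the sample at 3.59, young minus aged HSCs was -0.21. A group at the lowest value enters the fit with that value, so these differences depend on it. Fewer genes in all were detected in young than in aged samples, and the part of this in the young result was not tested.

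Emd encodes emerin, the LEM-domain protein of the inner membrane whose loss causes a muscular dystrophy (chromosome X, 74254687 to 74261548, plus strand). It was detected in 2 of 4 young, 3 of 5 aged and 2 of 3 CASIN-treated samples. The detected values were 6.33 and 3.88 in young HSCs, 1.30 to 2.02 in aged HSCs, and 6.62 and 5.28 after CASIN. CASIN-treated minus aged HSCs gave 3.18 log2 units (standard error 1.56, 95% confidence interval -0.26 to 6.62, unadjusted p = 0.0665, adjusted p = 0.948 from limma), the smallest p of the 10 genes in that comparison. The groups overlapped because CASIN replicate 3 was at its lowest value of 0.58. Without that sample the difference was 4.97 (unadjusted p = 0.00698, adjusted p = 0.82 from limma), and without CASIN replicate 1 it was 1.95. With the replicate number as a block it was 0.84 (unadjusted p = 0.672 from limma), a fit to which aged replicate 0 and CASIN replicate 1 add nothing because no other sample has their number. In young against aged HSCs the difference was 1.85 (95% confidence interval -1.31 to 5.00, adjusted p = 0.782 from limma), and 0.68 without young replicate 2.

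Tmpo, the gene of the LAP2 proteins, which bind lamins and BAF, was detected in 3 of 4 young, 4 of 5 aged and 2 of 3 CASIN-treated samples. Its values ran from 0.48 to 6.74 in young, from 0.23 to 6.22 in aged and from 0.58 to 5.09 in CASIN-treated HSCs, so that each group spanned nearly the same range. Against aged HSCs, the young samples gave 1.44 (95% confidence interval -2.14 to 5.01, adjusted p = 0.847 from limma) and CASIN-treated minus aged HSCs 0.68 (-3.21 to 4.57, adjusted p = 0.983 from limma). The first difference was 0.46 without young replicate 5, 2.55 without young replicate 3 and 2.40 with the replicate number as a block (unadjusted p = 0.045, adjusted p = 0.809 from limma).

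Banf1, the gene of the small DNA-binding protein BAF, was detected in 1 young, 2 aged and 1 CASIN-treated sample. Young replicate 3 stood at 6.81, and the highest values of the other groups were 2.25 and 0.92. The difference of young from aged HSCs was 1.44 (95% confidence interval -1.21 to 4.09, adjusted p = 0.796 from limma) and -0.12 without that sample. CASIN-treated minus aged HSCs gave 0.00 (-2.88 to 2.89, adjusted p = 1.0 from limma). Young replicate 3 was thus the sample with the highest Lmnb2 and Banf1 values of all 12, and it detected the most of the 10 genes among the young samples.

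Syne1, the gene of nesprin-1, which binds actin from the outer nuclear membrane (chromosome 10, 5020917 to 5551482, minus strand), was detected in every sample, at 8.17 or more. Its values were 9.01, 8.17, 9.66 and 9.14 in young replicates 2 to 5. In aged replicates 0 and 2 to 5 they were 9.21, 10.32, 9.09, 9.65 and 9.15, and in CASIN replicates 1 to 3 they were 8.26, 10.12 and 10.56. The SD of Syne1 over the 12 samples was 0.74, against a median of 1.31 for the 2143 genes detected in all of them, of which 337 had a lower SD.

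The means of Syne1 were 8.99 ± 0.62 in young HSCs (SD, n = 4), 9.49 ± 0.52 in aged HSCs (SD, n = 5) and 9.65 ± 1.22 after CASIN (SD, n = 3). In young against aged HSCs the difference was -0.49 (95% confidence interval -1.69 to 0.70, adjusted p = 0.842 from limma), CASIN-treated minus aged HSCs 0.16 (-1.14 to 1.46, adjusted p = 0.992 from limma) and young minus CASIN-treated HSCs -0.65 (-2.02 to 0.71, adjusted p = 1.0 from limma). These are the narrowest intervals among the 10 genes. Without CASIN replicate 1 the last difference was -1.34 (unadjusted p = 0.037, adjusted p = 0.997 from limma), and without CASIN replicate 3 it was -0.20.

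Sun1, an inner membrane protein gene of the LINC complex (chromosome 5, 139200637 to 139249840, plus strand), was detected in all young and all aged samples but in 1 of 3 CASIN-treated samples. In young replicates 2 to 5 it stood at 5.49, 6.31, 2.03 and 4.64. In aged replicates 0 and 2 to 5 the values were 0.48, 5.05, 2.38, 2.79 and 1.77, and in CASIN replicates 1 to 3 they were 0.63, 2.94 and 0.58. Young HSCs thus held 2 of the 3 highest values, and the young value of 2.03 lay below CASIN replicate 2. The means were 4.62 ± 1.86 in young HSCs (SD, n = 4), 2.49 ± 1.67 in aged HSCs (SD, n = 5) and 1.38 ± 1.35 after CASIN (SD, n = 3).

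Young minus CASIN-treated HSCs gave 3.24 log2 units for Sun1 (standard error 1.21, 95% confidence interval 0.56 to 5.91, unadjusted p = 0.0222), which did not pass the adjustment over all genes (adjusted p = 1.0 from limma). Without CASIN replicate 2 this difference was 4.02 (unadjusted p = 0.0145, adjusted p = 0.759 from limma). It was 2.94 without young replicate 2, 2.67 without young replicate 3, 2.86 without CASIN replicate 1 and 2.83 without CASIN replicate 3, and the unadjusted limma p then was 0.0526, 0.0607, 0.0727 and 0.0743. Against aged HSCs, the young samples gave 2.12 (standard error 1.06, 95% confidence interval -0.23 to 4.48, unadjusted p = 0.0719, adjusted p = 0.764 from limma), and CASIN-treated minus aged HSCs -1.11 (-3.67 to 1.45, adjusted p = 0.948 from limma). CASIN replicates 1 and 3, in which Sun1 was at the lowest value, detected 30.4% and 32.3% of all genes, and the young samples 27.0% to 42.9%. The part of this in the Sun1 values was not tested.

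Sun2, the other SUN protein gene of the 10 (chromosome 15, 79724070 to 79742536, minus strand), had close values in young HSCs, namely 4.85, 4.37, 3.82 and 4.15 in replicates 2 to 5. Aged HSCs spread from 1.78 to 7.21, with 7.21, 6.35, 1.78, 4.74 and 4.69 in replicates 0 and 2 to 5. CASIN-treated HSCs spread further, with 7.27, 0.56 and 3.03. The SD was 0.43 in young (n = 4), 2.08 in aged (n = 5) and 3.39 in CASIN-treated HSCs (n = 3). The value of 3.03 in CASIN replicate 3 is the most shared value above the lowest in that sample, held by 1032 genes. The difference of young from aged HSCs was -0.66 (95% confidence interval -3.61 to 2.30, adjusted p = 0.92 from limma), CASIN-treated minus aged HSCs -1.33 (-4.55 to 1.88, adjusted p = 0.948 from limma) and young minus CASIN-treated HSCs 0.67 (-2.69 to 4.04, adjusted p = 1.0 from limma). CASIN-treated minus aged HSCs was -3.16 without CASIN replicate 1 (unadjusted p = 0.0336, adjusted p = 1.0 from limma) and 0.20 without CASIN replicate 2.

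**Figure D3:**
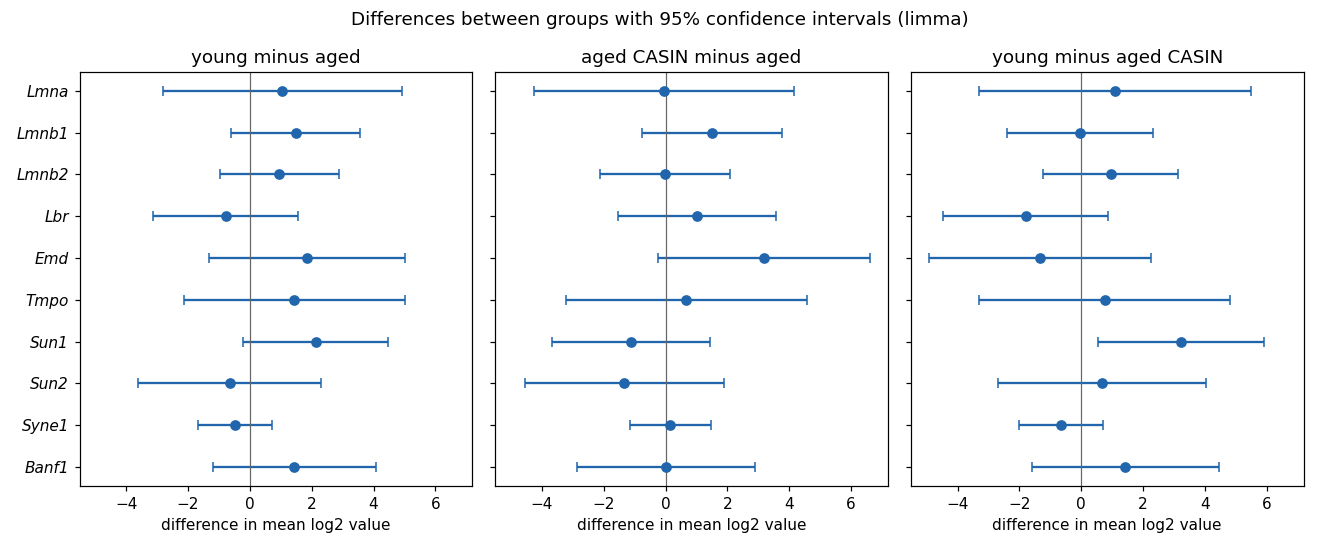
Difference in mean log2 value (x axis) of the 10 genes (rows) in young minus aged, aged CASIN minus aged, and young minus aged CASIN HSCs, with 95% confidence intervals from limma. The interval of Sun1 in the third panel, 0.56 to 5.91, is the only one of 30 that does not reach 0, before adjustment over all genes.

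**Figure D4:**
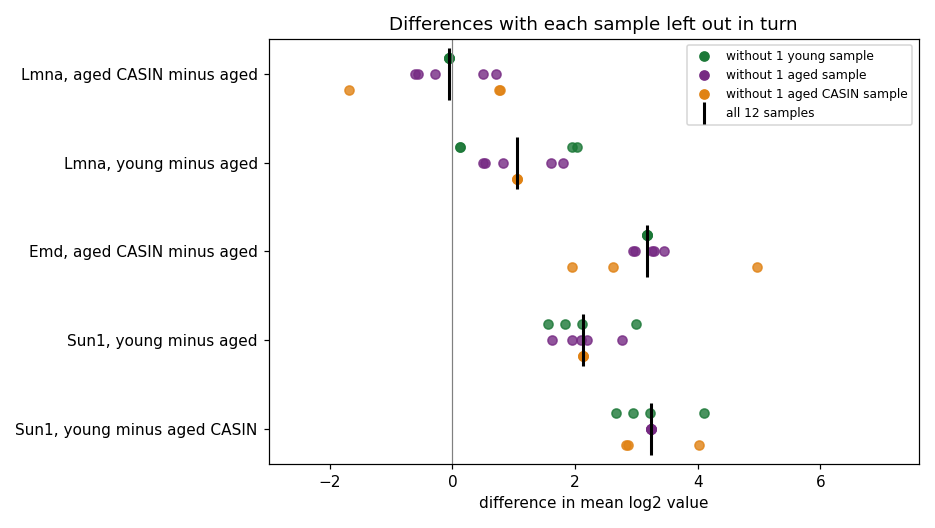
Difference in mean log2 value (x axis) of Lmna, Emd and Sun1 with all 12 samples (black bar) and in the 12 fits that drop 1 sample (points, coloured by the group of the sample left out). The CASIN difference of Lmna runs from -1.69 to 0.78 across 0, that of Emd from 1.95 to 4.97, and the young difference of Sun1 from the CASIN-treated group from 2.67 to 4.10.

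Overlap with other genes may limit some of these values. In GENCODE M21, exons of Lbr overlap those of Dnah14, exons of Tmpo those of Gm26765, exons of Sun1 those of 4930520M14Rik, exons of Sun2 those of Gm16575 and exons of Banf1 those of Eif1ad, all on the opposite strand. Exons of Lbr also overlap Gm26004, and exons of Emd overlap the pseudogene Gm14686, on the same strand. Whether reads were counted by strand is not given in the sources used here, so reads inside these overlaps may not be told apart. The lengths of the overlaps were not measured. The authors used RefSeq, in which overlaps were not examined. No exon of another gene overlaps those of Lmna, Lmnb1, Lmnb2 or Syne1.

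The 3 genes whose values ran most like those of Lmna over the 12 samples, among 11584 genes detected in at least 6, were Vmn2r108 (root mean square difference of the deviations from the mean 0.86 log2 units), Cnga2 (0.90) and Wasf1 (0.94). Vmn2r108 is a vomeronasal receptor gene, Cnga2 encodes a channel of olfactory neurons, and Wasf1 encodes an actin regulator of the WAVE family. Like Lmna, all of them were high in young replicates 3 and 5, aged replicates 2 and 5 and CASIN replicate 2. This follows from their choice as the closest of 11584 genes on these same values. Whether such likeness exceeds chance was not tested. The SD of Lmna itself was 2.6. Among the other 9 lamina and envelope genes this difference to Lmna was smallest for Banf1, at 2.07, and Sun1, at 2.13, and largest for Emd, at 3.56.

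Other genes were taken from 6 lists with 56 genes, of which 5 lists concern the nuclear envelope and the last holds Cdc42 and its regulator Arhgap1, all of them in the table and 6 of them detected in all 12 samples. None had an adjusted p under 0.05 in any comparison. The unadjusted limma p was under 0.05 for 2 of 56 genes in young against aged, for 3 in CASIN-treated against aged and for 4 in young against CASIN-treated HSCs, beside the shares of all genes given above. The median difference was -0.26, -0.30 and 0.14 log2 units in the same order.

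Among 6 genes of lamin processing, Icmt, the methyltransferase of farnesylated proteins such as prelamin A, was at the lowest value in all 4 young samples, as Lbr was. In each young sample 12875 to 16470 genes were at the lowest value, and how many were so in all 4 was not counted. In aged HSCs Icmt stood at 6.43, 5.09, 6.51, 0.22 and 2.92, and after CASIN at 0.63, 6.24 and 0.58. Its difference of young minus aged HSCs was -3.67 (standard error 1.47, unadjusted p = 0.0302, adjusted p = 0.764 from limma). Fnta, a subunit of the farnesyltransferase, was detected in 1 aged and 2 CASIN-treated samples and in no young one. It differed by 2.33 between CASIN-treated and aged HSCs (unadjusted p = 0.041, adjusted p = 0.948 from limma), CASIN replicate 3 standing at 6.05.

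Among 6 genes of the LINC complex and torsins, Tor1aip1, which encodes the torsin activator LAP1 of the inner membrane, was detected in all young and aged samples and in 1 CASIN-treated sample, as was Sun1. Its values were 6.47, 2.50, 6.70 and 5.59 in young HSCs and 0.63, 1.77 and 0.58 after CASIN. The difference between them was 4.32 (standard error 1.52, unadjusted p = 0.0162, adjusted p = 1.0 from limma), and no young value was as low as the CASIN-treated ones. Groups did not overlap for 2.07% of all genes in that comparison, with a common lowest value. The gene was named for its p from these same values, so the lack of overlap is not separate evidence. In aged HSCs Tor1aip1 ran from 0.48 to 6.95. None of 4 LEM-domain genes and none of 12 genes of inner membrane proteins and chromatin tethers had an unadjusted p under 0.05.

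Of 26 nuclear pore genes, 4 were detected in all 12 samples, and the unadjusted p was under 0.05 for 1 gene between young and aged, for 2 between CASIN-treated and aged and for 2 between young and CASIN-treated HSCs, where 5.33%, 4.4% and 4.29% of all genes did. Nup188, a scaffold subunit, was lower by 2.67 log2 units in young than in aged HSCs, with means of 1.55 ± 1.92 (SD, n = 4) and 4.22 ± 2.08 (SD, n = 5) and an unadjusted p of 0.0473 from limma. Nup210, a membrane nucleoporin, and Ranbp2, of the cytoplasmic filaments, had higher means after CASIN than in aged HSCs. For Nup210 the means were 5.51 ± 1.09 (SD, n = 3) and 2.42 ± 1.93 (SD, n = 5), a difference of 3.10 with an unadjusted p of 0.0296 from limma. For Ranbp2 they were 8.0 ± 0.87 (SD, n = 3) and 4.07 ± 2.01 (SD, n = 5), a difference of 3.93 with an unadjusted p of 0.0342. All 3 CASIN values of Ranbp2 (8.48, 7.0 and 8.53) lay above the 5 aged ones, the highest of which was 6.94. Groups did not overlap for 2.11% of all genes in that comparison, with a common lowest value. Ranbp2 was named for its p from these same values, so the lack of overlap is not separate evidence. Young minus CASIN-treated HSCs gave -4.15 for Nup153, of the nuclear basket, and 3.78 for Nup214, of the cytoplasmic side, with unadjusted limma p-values of 0.0346 and 0.0433. The adjusted p of these pore genes was 0.764 or more.

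Cdc42, the target of CASIN, and Arhgap1, the gene of the Cdc42 GTPase-activating protein, formed the last list. Cdc42 was 3.92 ± 2.41 in young HSCs (SD, n = 4), 4.90 ± 1.14 in aged HSCs (SD, n = 5) and 4.76 ± 3.60 after CASIN (SD, n = 3), and no difference had an unadjusted p under 0.05. The smallest, of young against aged HSCs, was 0.516 from limma. Arhgap1 was at the lowest value in all 4 young samples and was detected in all 5 aged samples, at 1.38, 1.16, 6.23, 3.35 and 2.76, and in 2 of 3 CASIN-treated samples, at 6.58 and 5.46. In each young sample 12875 to 16470 genes were at the lowest value. With a common lowest value, the young and aged groups of Arhgap1 did not overlap, as was found for 1.96% of all genes. In young against aged HSCs the difference was -2.42 (unadjusted p = 0.086, adjusted p = 0.764 from limma) and young minus CASIN-treated HSCs -3.65 (unadjusted p = 0.0297, adjusted p = 1.0 from limma). Activity of Cdc42 is not measured by either value.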

How the data were processed

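RNA-seq of 12 samples was analysed. The authors trimmed the reads with trim galore, aligned them with TopHat to mm10 (RefSeq) and ran Cufflinks, and they deposited log2 expression values after quantile normalization. How these came from the Cufflinks output is not given in the sources used here. Quantile normalization hides differences in total RNA. There are no counts, so depth and counting error are unknown.

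Values were used as deposited in limma 3.58.1 (R 4.3.3; lmFit, eBayes, two-sided), 1 fit of 3 groups, no filter, Benjamini-Hochberg adjustment over 22548 genes at 0.05. The fit was tried on the deposited values shuffled among samples within each gene, with a shift added to some genes in young samples. The outcome is not given here. Genes at the lowest value of a sample enter with that value. The methods of the study define biological repeats as experiments on separate days with separate mice. The labels do not say which samples share a day or a mouse, so no batch could be fitted. Positions are from GENCODE M21 (mm10), and figures used matplotlib 3.10.9.

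The genes and lists were chosen with earlier results of these data known. Values in every sample are given for Lmna, Lmnb1, Lmnb2, Sun2, Syne1 and any other of the 10 whose unadjusted p fell under 0.05. From each list, up to 3 genes per comparison with an unadjusted p under 0.05 are named, and so are the 3 genes most like Lmna. Per-sample or group values of Lbr, Emd, Tmpo, Banf1 and Cdc42 were added. Alternatives were a common lowest value, centring, 2 filters, a pseudocount of 0.1, array weights, limma-trend, fits of 2 groups, a detection covariate, a replicate block and each sample left out. For the pseudocount of 0.1, the deposited values were assumed to hold a pseudocount of 1.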

Additional observations from a re-analysis of the deposited data

Results flagged for a closer look

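In groups of 4 or 5 samples, 1 sample stood far from the others (Dixon's gap test at 95%) in 3 of the 20 groups examined, where chance alone marks about 1 in 20 groups. Lmnb1 was 1.16 in aged replicate 2, and the next aged sample was at 0.23. Lmnb2 was 5.04 in young replicate 3, with the next young sample at 0.67, and Banf1 was 6.81 in the same library, again with the next at 0.67. In all 3 groups the other samples were at the lowest value of their library, so that each gap is between a detected and an undetected gene. The rate of 1 in 20 is for continuous values and does not hold for groups of this kind.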

How the results depend on the processing

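No setting and no left-out sample gave an adjusted p under 0.05 to any of the 10 genes in any comparison. Over the settings that kept all samples, 263 of 279 differences kept their sign and 16 turned it, and over the fits with 1 sample left out 332 of 360 did and 28 turned it. For CASIN-treated minus aged HSCs, centring gave 0.30 for Lmna and 0.34 for Lmnb2, the pseudocount of 0.1 gave 0.21 for both, and the detection covariate gave 0.83 and 0.15. Banf1 was -0.25 with a common lowest value and -0.0375 with array weights. For young minus CASIN-treated HSCs, Lmnb1 was 0.0741 with centring, 0.0561 with the pseudocount, 0.52 with array weights and 0.74 with the covariate. With the replicate number as a block, to which aged replicate 0 and CASIN replicate 1 add nothing, CASIN-treated minus aged HSCs gave 0.13 for Lmna and -0.73 for Banf1, and young minus CASIN-treated HSCs 0.13 for Lmnb1 and 1.11 for Emd. The labels do not say that the numbers pair the samples. The deviations of same-numbered samples correlated across genes at -0.01 to 0.01 (young and aged) and at 0.06 and 0.02 (CASIN-treated and aged). In 4 of these 6 pairs the same-numbered sample was the best partner among the 5 aged samples, with correlations of 0.01 to 0.06. Whether 4 of 6 exceeds chance was not tested. The causes of these turns were not tested.

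With 1 sample left out, CASIN-treated minus aged HSCs ran from -1.69 to 0.78 for Lmna, -0.16 to 0.13 for Lmnb2, -0.68 to 1.88 for Lbr, -0.34 to 1.92 for Tmpo, -3.16 to 0.20 for Sun2, -0.30 to 0.85 for Syne1 and -0.15 to 0.39 for Banf1. Young minus aged HSCs ran from -0.17 to 1.37 for Lmnb2 and -0.12 to 2.01 for Banf1. Young minus CASIN-treated HSCs ran from -0.78 to 1.25 for Lmnb1, -0.16 to 1.38 for Lmnb2, -0.48 to 1.87 for Tmpo, -0.85 to 2.50 for Sun2 and -0.12 to 2.00 for Banf1. Lmna stayed above 0 in young minus aged (0.12 to 2.02) and young minus CASIN-treated HSCs (0.17 to 2.74).

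Sun1 in young minus CASIN-treated HSCs kept an unadjusted p under 0.05 in 8 of 9 settings (0.0094 to 0.0695, the highest from limma-trend). In young against aged HSCs the number of the 10 genes under that threshold, 0 as reported, was 2 with centring (Lmnb1 and Sun1) and 1 with array weights (Sun1), the covariate (Lmnb1) or the block (Tmpo). For CASIN-treated against aged HSCs, also 0 as reported, it was 1 with centring (Emd), the fit of 2 groups (Emd) or the covariate (Lmnb1). The numbers of detected genes did not overlap between young and aged samples, so the covariate fit cannot separate age from detection. A filter on a mean of at least 3 left 3 of the 10 genes. Most of these genes lie near the lowest value, with 3 to 5 samples a group, and depth is unknown.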
